A study of Mus musculus with 7 samples.

Results

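Cytochrome P450 enzymes are haem proteins that add oxygen to drugs, fatty acids, sterols, steroid hormones and vitamins, and the liver holds more kinds of them than other organs. Most sit in the endoplasmic reticulum and take electrons from P450 oxidoreductase, the product of Por, while a smaller set in mitochondria takes them from ferredoxin, the product of Fdx1. Members of families 1 to 3 mainly oxidise foreign compounds, members of family 4 mainly fatty acids and eicosanoids, and the remaining families make or break down bile acids, steroids, vitamin D and retinoic acid.

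The genes described here are those on the array whose symbol is Cyp followed by a digit, leaving out the Cyp2b and Cyp2c subfamilies, Cyp4a10, Cyp4a14 and Cyp51. The rule found 77 genes, measured by 91 probes, among 32451 genes and 39429 probes on the array. It left out 21 other Cyp genes. No measured value entered the choice.

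Total RNA came from the livers of male C57/BJ mice that were given a high-fat diet (HFD, D12331 of ResearchDiets) or a control chow (Provimi Kliba) from 6 weeks of age for 20 weeks, and were 26 weeks old at harvest. No transgene or drug is named for either group, and all 7 samples came from mice of the same strain and sex. Each of 4 chow and 3 HFD samples was hybridised to 1 single-colour Agilent array. The labels do not say that the samples came from separate animals, so the p-values below measure only the spread between samples, which may be technical.

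Before any comparison, the files were checked against their labels. The deposited data hold a scanner file per array and a table of log2 values for 1615 probes, or 1488 genes. Across the probes of the table, an HFD scanner file and the HFD column of the same sample correlated at a Pearson r of 0.9999, whereas for the chow samples r lay between 0.580 and 0.589. The P450 genes show the same mismatch. Of the 56 genes that were well above background on all 3 HFD arrays, 18 were well above background on none of the 4 scanner files labelled chow, among them Cyp1a2, Cyp2f2, Cyp3a11, Cyp7a1 and Cyp8b1, all typical hepatocyte genes. Cyp27b1, the vitamin D hydroxylase best known from kidney, was well above background on all 4 files labelled chow and on none of the HFD arrays. Of 7 named hepatocyte markers, 7 were well above background on all 3 HFD arrays. On the files labelled chow, 4 of the 7 were so on none and 2 on all 4. The diet comparison therefore uses the deposited table, and for genes outside that table only the HFD scanner levels are given.

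The table also limits what can be said. Chow and HFD values do not overlap in it, which makes it a selection made on the diet comparison itself, so a gene's presence there and its p-value are not independent evidence. A gene's absence from it says nothing about the diet. The HFD arrays share 1 scan day, and no source gives that of the chow columns, so scan day and diet cannot be told apart. HFD 1 stood apart in its background: negative control probes averaged 46.9 there, and 29.9 and 30.8 on HFD 2 and HFD 3.

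The first question was which of these P450 genes differed between the diets. The table listed 3 of the 77 genes, or 3.90%, against 4.59% of all genes on the array. Cyp1a1, the dioxin-inducible oxidase of polycyclic aromatic compounds, and Cyp2j6, an epoxygenase of polyunsaturated fatty acids, were higher in HFD, and Cyp3a13, a drug and steroid oxidase of the 3A subfamily, was lower. With Benjamini-Hochberg adjustment over all 32451 genes in limma, 1 member passed as higher, where 1.05% of all genes did, and 0 passed as lower, where 0.832% of all genes did. At an unadjusted p under 0.05 in limma, 2 members were higher and 1 was lower. That count only repeats the listing, because all 1488 genes of the table were under 0.05. The shares of members listed and passing lie near those of all genes.

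The promoters of 2 genes that passed as higher are shown first, because both genes are textbook targets of the aryl hydrocarbon receptor (AHR), a theme chosen after their values were seen. Cyp1a2, Cyp1b1 and Nqo1, other textbook targets, were well above background on all 3 HFD arrays and were not in the table. One is Cyp1a1. The other is Tiparp, which is no P450 but encodes an ADP-ribosyltransferase that dampens the receptor, and was on the list of P450 regulators. AHR with its partner ARNT binds DNA at a core of GCGTG. Matches on either strand are in capitals in the RefSeq promoters of build GRCm38.p6, each running from 250 bases before to 50 bases after the start site.
Cyp1a1, chr9:57697363-57697662, plus strand: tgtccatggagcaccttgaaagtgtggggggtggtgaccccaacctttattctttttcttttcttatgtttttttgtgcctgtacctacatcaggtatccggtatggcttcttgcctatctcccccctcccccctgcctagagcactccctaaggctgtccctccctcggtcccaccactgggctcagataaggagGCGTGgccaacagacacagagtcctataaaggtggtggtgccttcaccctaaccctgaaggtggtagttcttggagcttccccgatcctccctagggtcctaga
Tiparp, chr3:65528197-65528496, plus strand: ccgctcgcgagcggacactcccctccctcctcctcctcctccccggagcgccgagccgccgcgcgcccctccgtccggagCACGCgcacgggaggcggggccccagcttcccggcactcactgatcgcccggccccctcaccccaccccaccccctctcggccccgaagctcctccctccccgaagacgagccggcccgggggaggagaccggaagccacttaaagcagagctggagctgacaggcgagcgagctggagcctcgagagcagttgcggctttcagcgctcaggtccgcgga
The core begins 54 bases before the start site in Cyp1a1 and 170 bases before it in Tiparp, once in each. It is a short and common word: 32.4% of the 32851 RefSeq promoters of this length hold it on either strand, as do 13 of the 55 members with a promoter in that set. A match is a description of the sequence and not evidence of binding.

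Cyp1a1 had log2 values of 3.69, 3.92, 3.58 and 3.64 in chow 1 to 4, and of 5.14, 5.09 and 5.51 in HFD 1 to 3. All HFD values lay above all chow values, by at least 1.17 on the log2 scale. In limma the log2 fold change was fitted at 1.54, SE 0.14, and passed at an adjusted p = 0.0192. Every chow value was however below the highest detection floor of the HFD arrays, the lowest value of a probe well above background, which was 4.93 on HFD 1, 4.16 on HFD 2 and 3.72 on HFD 3. Cyp1a1 is therefore given as the HFD mean over chow values raised to a floor where they lay below it. That was 1.25-fold with the highest floor, and 2.12-fold and 2.78-fold with the other two. The Cyp1a1 probe was well above background on HFD 2 and HFD 3 but not on HFD 1. The HFD 1 value still entered the HFD mean, so these folds bound the chow side only and are not firm lower limits. With values below the floor raised to it, the log2 fold change was 0.32, which missed the threshold in limma with an adjusted p = 0.758. The call was also lost without chow replicate 1, chow replicate 3, chow replicate 4, HFD replicate 1 or HFD replicate 2, with fitted folds of 2.82 to 3.07 and adjusted p of 0.0558 to 0.0843 in limma.

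**Figure D1:**
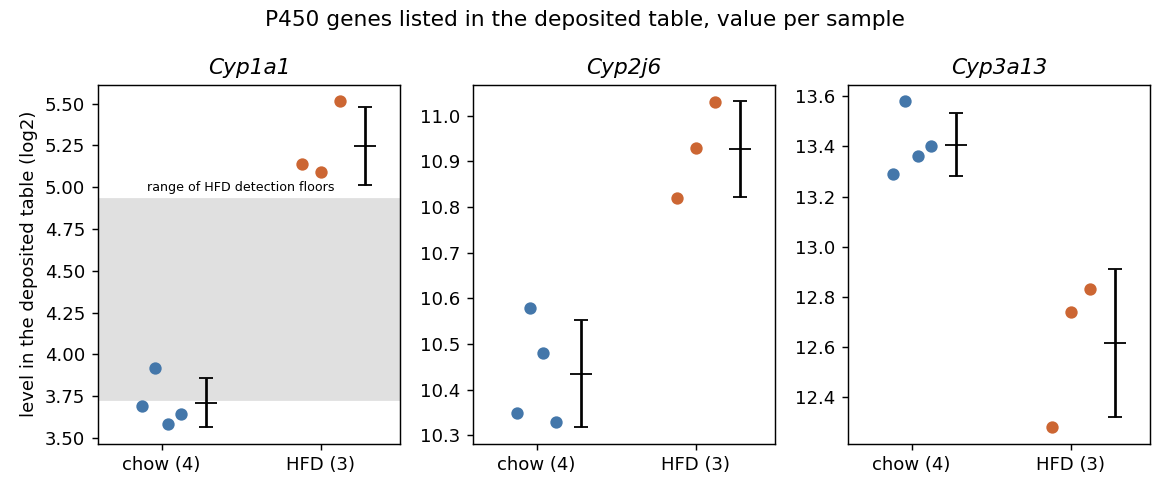
Level in the deposited table (log2, vertical axis) of the 3 listed P450 genes in each of 4 chow and 3 HFD samples; points are samples, and the bar beside them is the mean ± SD of the group. The chow points of Cyp1a1 lie at or below 3.92, under the highest HFD detection floor of 4.93, and the grey band spans the floors of the 3 HFD arrays.

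Cyp2j6 had chow values of 10.35, 10.58, 10.48 and 10.33 and HFD values of 10.82, 10.93 and 11.03. The groups were separated by 0.24 on the log2 scale, and both groups were tight. The chow mean was 10.43 ± 0.12 (SD, n = 4) and the HFD mean 10.93 ± 0.10 (SD, n = 3). This 1.41-fold difference (log2 0.49, SE 0.11) missed the threshold in limma over all genes, at an adjusted p = 0.0699. Centring each column of the table on its median lowered all differences by 0.22, which brought that of Cyp2j6 to 0.27. A second probe of Cyp2j6 was not in the table. On the HFD arrays the 2 probes had the same order, with HFD 1 lowest and HFD 3 highest on each.

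Cyp3a13 had the values 13.29, 13.58, 13.36 and 13.40 in chow and 12.28, 12.74 and 12.83 in HFD. Every HFD value lay below every chow value, by at least 0.46, and HFD 1 was the lowest. The chow mean was 13.41 ± 0.12 (SD, n = 4) and the HFD mean 12.62 ± 0.29 (SD, n = 3), 1.73-fold lower (log2 -0.79, SE 0.15). The difference missed the threshold in limma with an adjusted p = 0.0565, but passed with the columns centred on their median (2.01-fold lower, adjusted p = 0.0393 in limma), after quantile normalization (adjusted p = 0.0431 in limma) and with the table's own variance prior (adjusted p = 0.0407 in limma). Both scalings use a table selected on the diet, and centring lowers all differences by 0.22 by construction. Cyp3a13 did not pass with any 1 sample left out (adjusted p of 0.0776 to 0.172 in limma). With the replicate number as a block it did not pass either (adjusted p = 0.279 in limma). Its second probe was likewise outside the table. Both Cyp3a13 probes were lowest on HFD 1.

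The genes that serve or control the P450 enzymes were counted from lists of 73 genes. Of these, 7 were in the table: 1 of 15 electron donors and haem enzymes, 4 of 32 regulators, 1 of 16 bile acid genes outside the P450 family, and 1 of 10 epoxide hydrolases and flavin oxidases. Tiparp passed as higher and 2 other regulators passed as lower. Of all genes on the array, 4.59% were in the table, 1.05% passed as higher and 0.832% passed as lower. Por, Cyb5a, Fdx1, Fdxr and Alas1, which carry the electrons and start haem synthesis, were well above background on all 3 HFD arrays and were not in the table. Nor were the receptors Ahr, Nr1i2 (PXR), Nr1i3 (CAR), Nr1h4 (FXR) and Ppara.

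Tiparp rose from 8.05 ± 0.14 (SD, n = 4) in chow to 8.72 ± 0.15 (SD, n = 3) in HFD, 1.59-fold (adjusted p = 0.0491 in limma). It kept this direction but did not pass with the columns centred on their median (1.37-fold, adjusted p = 0.423 in limma) or after quantile normalization (1.38-fold, adjusted p = 0.374 in limma). Foxa3, a forkhead factor of hepatocyte genes, fell from 10.76 ± 0.16 (SD, n = 4) to 9.90 ± 0.17 (SD, n = 3), 1.82-fold (adjusted p = 0.0333 in limma). Nr5a2, the nuclear receptor LRH-1 that takes part in the control of Cyp7a1 and Cyp8b1, fell from 7.37 ± 0.12 (SD, n = 4) to 6.74 ± 0.10 (SD, n = 3), 1.55-fold (adjusted p = 0.0430 in limma). Each of these 3 calls was lost when any 1 sample was left out, with adjusted p in limma from 0.0573 for Foxa3 without HFD replicate 3 to 0.187 for Tiparp without HFD replicate 2. As for every gene of the table, their chow and HFD values did not overlap.

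Of the listed genes that did not pass, Esr1, the oestrogen receptor, is given without a fold, because its probe in the table was well above background on only 1 HFD array and 1 of its 4 chow values lay below the highest floor (adjusted p = 0.0544 in limma). Its other 2 probes, outside the table, were well above background on all 3. Fgfr4, the hepatocyte receptor through which the gut hormone FGF15 restrains Cyp7a1, was at -0.61 on the log2 scale (adjusted p = 0.0716 in limma). Fmo5, a flavin monooxygenase, had a value of 0.58 and Blvrb, a biliverdin reductase, of 0.54 (adjusted p = 0.0558 and 0.0810 in limma). Markers of liver zones were also in the table. Glul, the pericentral glutamine synthetase, was 1.85-fold higher in HFD (adjusted p = 0.0218 in limma), while periportal Cps1 had a log2 fold change of -1.36 and stellate Dcn of 0.64, neither of which passed (adjusted p = 0.0528 and 0.0671 in limma). These were 1 of 8 pericentral, 1 of 8 periportal and 1 of 7 stellate markers, and none of the 7 hepatocyte, 7 macrophage, 5 neutrophil, 6 endothelial and 6 cholangiocyte markers was in the table. Genes of macrophages and matrix outside these lists, picked after their values were seen, were in it. Itgam and Ms4a7 rose by 0.81 and 2.30 on the log2 scale (adjusted p = 0.0261 and 0.0491 in limma), Gpnmb and Ccr2 also passed as higher, and Col14a1, a collagen, rose by 1.03 (adjusted p = 0.0295 in limma). Itgax and Col3a1 had log2 fold changes of 2.15 and 1.61 and did not pass (adjusted p = 0.0634 and 0.0548 in limma). Not all such genes were higher. The collagens Col25a1 and Col7a1 had log2 fold changes of -0.925 and -0.806 and Cd300a of -0.66. None of these passed (adjusted p = 0.062, 0.063 and 0.083 in limma). Their part in the P450 values was not tested. In whole liver, fewer cells of a type and less RNA per cell cannot be told apart.

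The second question was which P450 genes the HFD livers expressed at all. Of the 77 genes, 56 (72.7%) were well above background on all 3 HFD arrays, against 54.3% of all genes on the array, 7 on 1 or 2 arrays, and 14 on none. Of the 56, 54 were outside the table and have HFD levels only. The plot of detection by group shows that the groups differed in this share.

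**Figure D2:**
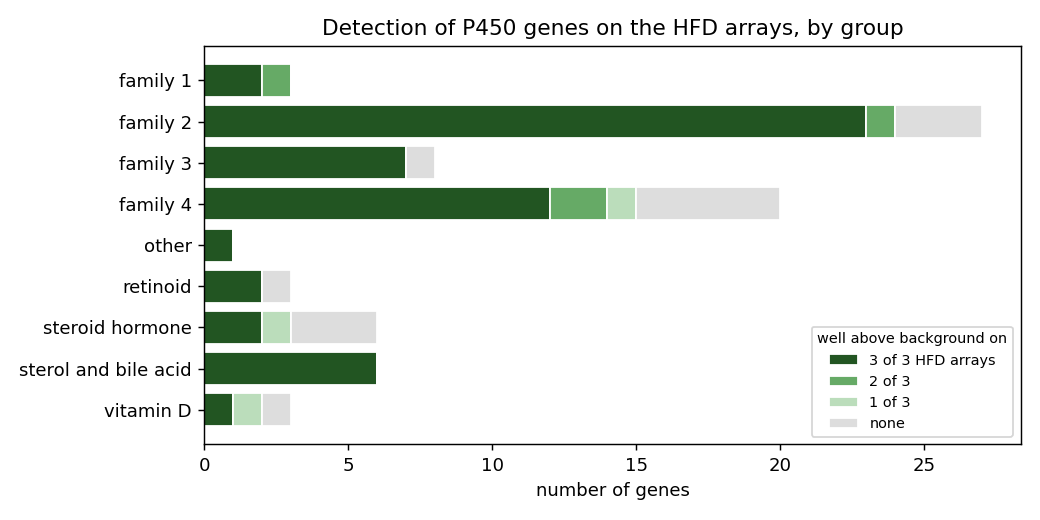
Number of P450 genes (horizontal axis) in each group by family number, split by the number of HFD arrays on which the gene was well above background. All 6 sterol and bile acid genes and 23 of 27 family 2 genes were well above background on 3 of 3 arrays, while 3 of 6 steroid hormone genes and 5 of 20 family 4 genes were so on none.

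All 6 genes of sterol and bile acid metabolism were well above background on the 3 arrays: Cyp7a1, Cyp7b1, Cyp8b1, Cyp27a1, Cyp39a1 and Cyp46a1. In families 2 and 3 the counts were 23 of 27 and 7 of 8, and in family 4 they were 12 of 20. The genes that were well above background on no array included Cyp11a1, Cyp11b1 and Cyp11b2, which make steroid hormones in the adrenal gland and gonads, Cyp27b1, and Cyp26c1, a retinoic acid hydroxylase of the embryo. Cyp3a44, Cyp2w1, Cyp2j11, Cyp2ab1, Cyp4a29, Cyp4a30b, Cyp4f37, Cyp4f40 and Cyp4x1 were the others. Aromatase (Cyp19a1) was well above background on HFD 2 alone, and Cyp24a1, which inactivates vitamin D, on HFD 3 alone. Cyp4b1-ps2, a pseudogene, was so on 1 array, and Cyp1a1, Cyp2g1, Cyp4f39 and Cyp4f41-ps on 2.

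The HFD arrays spread more widely at the median P450 gene than at the median of all genes. HFD levels below are log2 processed signals relative to the 75th percentile of the same array, and levels of different probes were not set against each other. The median range over the 3 arrays was 0.60 on the log2 scale for the 56 P450 genes and 0.33 for all 17610 genes that were well above background on 3 arrays. A range over 1, meaning more than 2-fold between arrays, was seen in 17 of 56 P450 genes (30.4%) and in 8.5% of all such genes. With other scalings or probe rules the count was 13 to 17. Some other hepatocyte genes spread widely too. On HFD 1, 2 and 3, periportal Cps1 had levels of 2.87, 3.72 and 3.89 and pericentral Tbx3 of 1.92, 2.55 and 2.98. Others spread less, such as Apob with 7.08, 7.20 and 7.19. Whether the wide spread is particular to P450 genes was not tested. There was 1 group and 3 samples, so no test was made.

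**Figure D3:**
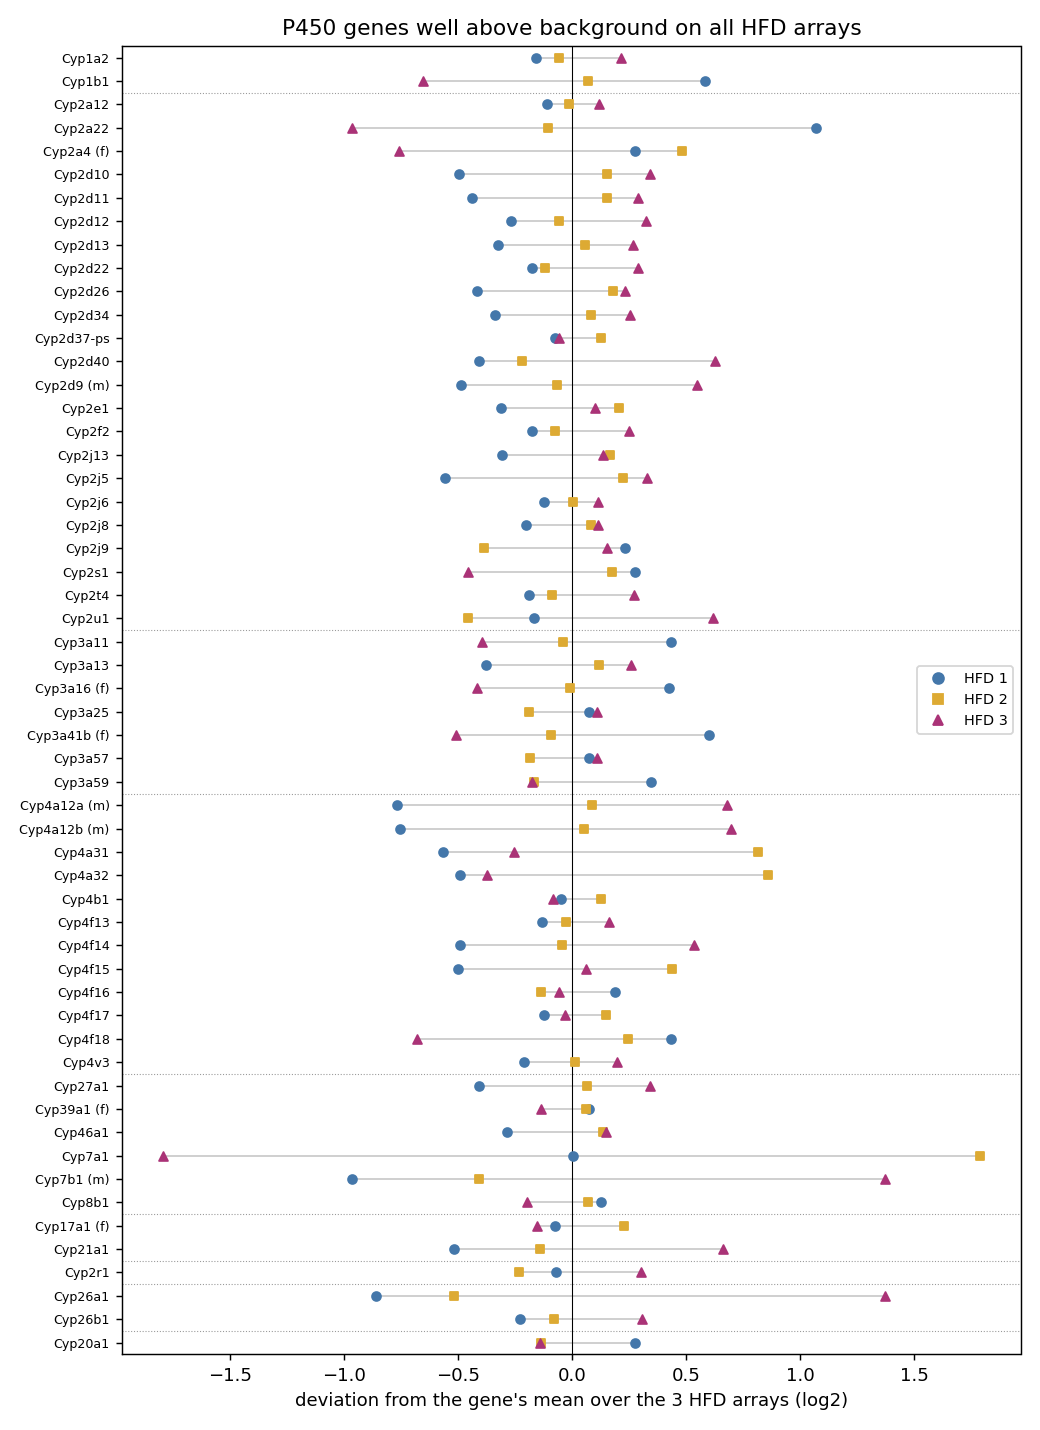
Deviation of each HFD array from the gene's mean over the 3 arrays (log2, horizontal axis) for the 56 P450 genes well above background on all of them, with dotted lines between groups; (m) and (f) mark genes with higher expression in male or female mouse liver. Cyp7a1, Cyp7b1, Cyp26a1 and Cyp2a22 have the widest ranges, from 2.03 to 3.58; with normexp background correction that of Cyp2a22 was 1.15.

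HFD 1 tended to lie low and HFD 3 high. HFD 1 was lowest for 35 of the 56 genes (62.5%), against 42% of all genes, and HFD 3 was highest for 32 of 56 (57.1%), against 38.5% of all genes. After quantile normalization of the HFD arrays these counts were 29 and 30, against 36.2% and 35.9% of all genes. Hepatocyte markers had a summed level of 11.01, 11.63 and 11.48 (log2) on HFD 1, 2 and 3, and macrophage markers one of 6.32, 5.01 and 5.19, for 7 of 8 listed genes each, all well above background. HFD 1 thus had the lowest hepatocyte and the highest macrophage sum. Pericentral markers (8 of 8 measured) had sums of 7.22, 7.63 and 7.68 and periportal markers (8 of 8) of 7.26, 7.84 and 7.92, both lowest on HFD 1. The part of these markers in the P450 spread was not tested.

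Cyp2d genes, a large mouse subfamily, followed this order closely. HFD 1 was the lowest array for 10 of 10 Cyp2d genes and HFD 3 the highest for 9 of 10. Cyp2d10 had levels of 6.70, 7.36 and 7.54 on HFD 1, 2 and 3, Cyp2d26 of 7.87, 8.47 and 8.52, and Cyp2d22 of 3.59, 3.65 and 4.05. Cyp2d40 had 5.36, 5.55 and 6.40, with HFD 3 well apart from the others. Under quantile normalization the range of Cyp2d26 shrank from 0.65 to 0.15. The Cyp2d genes are near copies of each other, and whether a probe also detects a neighbouring copy was not tested.

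Cyp1a2, Cyp2e1 and Cyp2f2 had ranges below the P450 median of 0.60. Cyp1a2, which oxidises caffeine and aromatic amines, had levels of 2.90, 3.00 and 3.28, a range of 0.38. Cyp2e1, the pericentral ethanol oxidase, had 8.63, 9.14 and 9.04, and its range fell from 0.52 to 0.08 under quantile normalization. Cyp2f2, a periportal naphthalene oxidase, had 7.32, 7.41 and 7.74. HFD 1 was lowest for all 3 of these genes. Cyp1b1, an AHR-inducible oxidase mainly of cells other than hepatocytes, ran the other way, with -2.57, -3.08 and -3.80, and its range of 1.23 was 0.56 with normexp background correction. Stellate markers, 7 of 7 measured, had summed levels of 6.40, 6.39 and 6.10, and endothelial markers, 6 of 6, of 4.79, 5.02 and 4.78. Cholangiocyte markers, 6 of 6, had the widest spread of the marker sums, with 3.09, 2.03 and 1.25, the order of Cyp1b1. That sum was mostly Spp1, at 2.98, 1.81 and 0.93, while the medians of the list were -3.23, -3.10 and -3.25. HFD 3 was lowest for 5 of the 6 markers. Cftr, well above background on 2 arrays, was lowest on HFD 1. The part of these marker lists in the P450 values was not tested.

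Family 3 split in its order. Cyp3a11, the principal drug oxidase of adult mouse liver, had levels of 6.77, 6.29 and 5.94, highest on HFD 1 and lowest on HFD 3, and its second probe had the same order with 5.13, 4.30 and 4.13. Cyp3a16 and Cyp3a41b were also highest on HFD 1 and lowest on HFD 3. Cyp3a59 was highest on HFD 1, and its probes disagreed on the lowest array, with 4.62, 4.11 and 4.10 on one and 0.30, -0.45 and -0.11 on the other. Cyp3a25 had 4.99, 4.72 and 5.02 and Cyp3a57 had 3.95, 3.70 and 3.99, with HFD 2 lowest in each. Cyp3a13, described above, was lowest on HFD 1 and highest on HFD 3. Cyp3a16, Cyp3a41b and Cyp3a59 are near copies of Cyp3a11, and shared detection was not tested.

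P450 genes with higher expression in male mice and those with higher expression in female mice placed HFD 3 at opposite ends. Growth hormone is secreted in pulses in males and more evenly in females, and this rhythm sets which of these genes the liver expresses. All 4 genes listed as higher in males were highest on HFD 3 and lowest on HFD 1. All 5 genes listed as higher in females that were well above background on 3 arrays were lowest on HFD 3, while their highest array was HFD 1 in 3 genes and HFD 2 in 2. Among all genes on 3 arrays, HFD 3 was highest for 38.5% and lowest for 30.7%. Among the 56 P450 genes it was highest for 57.1% and lowest for 26.8%, and HFD 1 was lowest for 62.5%. The order of the male-biased genes was thus also that of many other P450 genes, such as 9 of 10 Cyp2d genes, of which only Cyp2d9 is on the male list. The same counts of 4 and 5 were found with each of 3 other scalings and with the mean of all probes. The lists were drawn up with earlier results of these arrays known, so this is a description without a test.

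Cyp7b1, the oxysterol hydroxylase of the alternative bile acid pathway and the widest of the male-biased genes, had levels of 2.48, 3.03 and 4.81 on HFD 1, 2 and 3, a 5.04-fold range. HFD 3 stood well above HFD 1 and HFD 2. Cyp4a12a and Cyp4a12b, fatty acid hydroxylases of arachidonic acid, had 2.83, 3.68 and 4.27 and 2.91, 3.71 and 4.36. They are near copies, and whether each probe also detects the other gene was not tested. Cyp2d9, a steroid hydroxylase, had 4.87, 5.29 and 5.90.

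Among the female-biased genes, Cyp2a4, a steroid hydroxylase, had levels of 6.14, 6.35 and 5.11, and its second probe had 4.73, 4.87 and 3.57. HFD 3 was more than 1 log2 unit below the other two on both probes. Cyp3a41b had 1.37, 0.68 and 0.27 and Cyp3a16 had 3.84, 3.40 and 3.00. In Cyp17a1, a steroid hydroxylase and lyase, and Cyp39a1, an oxysterol hydroxylase, the ranges were only 0.38 and 0.21. Cyp17a1 had 2.25, 2.55 and 2.17, so HFD 3 lay only just below HFD 1. Cyp39a1 had 1.11, 1.10 and 0.90. Cyp3a44 was not well above background on any array, and Cyp3a41a had no named probe. Cyp2a22, on neither list, had -2.31, -3.48 and -4.34, a 4.09-fold range with HFD 3 lowest. Its range of 2.03 on the log2 scale was 1.15 with normexp background correction, below that of Cyp4a12a at 1.45.

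**Figure D4:**
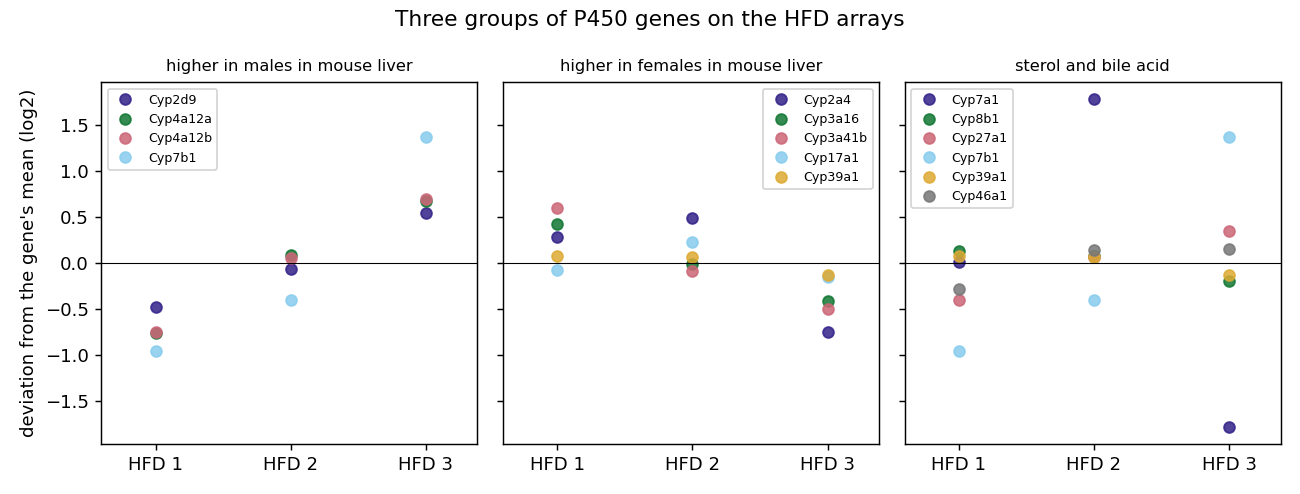
Deviation of each HFD array (horizontal axis) from the gene's mean over the 3 arrays (log2, vertical axis) for male-biased, female-biased and sterol and bile acid P450 genes; each point is 1 gene on 1 array. The 4 male-biased genes are highest and the 5 female-biased genes lowest on HFD 3, and Cyp7a1 has the widest spread, 3.58 between HFD 2 and HFD 3.

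Bile acid synthesis showed both the widest and some of the narrowest ranges. Cyp7a1, the rate-limiting enzyme of the classical pathway, had levels of -0.32, 1.46 and -2.12 on HFD 1, 2 and 3, an 11.9-fold range that was the largest of the 56 genes. Each array differed from the next by more than 1 log2 unit. Cyp8b1, the sterol hydroxylase that sets the share of cholic acid, had 2.22, 2.16 and 1.89, a 1.25-fold range. Cyp27a1, the mitochondrial sterol hydroxylase that opens the alternative pathway, had 1.88, 2.36 and 2.63, lowest on HFD 1. Cyp46a1, a cholesterol hydroxylase best known from brain, had -2.44, -2.02 and -2.01.

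Fatty acid hydroxylases of the Cyp4a subfamily ranked the arrays differently from the male-biased Cyp4a12 pair. Cyp4a31 had levels of 4.55, 5.93 and 4.86, and its other probes gave 2.16, 3.54 and 2.63 and 0.66, 1.81 and 0.95. Cyp4a32 had 2.65, 4.00 and 2.77. HFD 2 was highest on each of these 4 probes. Both genes are near copies of Cyp4a10, and whether their probes also detect it was not tested.

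The Cyp4f genes, which shorten and inactivate leukotrienes and other lipids, were more mixed. Cyp4f14 had 3.68, 4.13 and 4.70 and Cyp4f15 had 2.95, 3.88 and 3.51, both lowest on HFD 1. Cyp4f18, which is expressed by myeloid cells, had 0.07, -0.11 and -1.04, lowest on HFD 3, while neutrophil markers (5 of 6 measured) had summed levels of 6.00, 6.02 and 6.05 and macrophage markers those given above. Of these markers, Retnlg, Camp, Adgre1 and Lyz2 were lowest on HFD 3. All others were not: S100a8, S100a9, Clec4f, Cd5l, Marco, Vsig4 and Timd4 were lowest on HFD 2, and Csf3r on HFD 1. S100a8 and S100a9 were highest on HFD 3, and the neutrophil sum was mostly Csf3r. The part of these markers in the Cyp4f18 values was not tested. Cyp4v3, an omega-hydroxylase of fatty acids, was steady at 4.72, 4.95 and 5.13.

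Of the epoxygenases of the Cyp2j subfamily besides Cyp2j6, Cyp2j5 had levels of -1.02, -0.24 and -0.14, lowest on HFD 1. Cyp2u1, a hydroxylase of long-chain fatty acids, had -2.49, -2.77 and -1.70 and was highest on HFD 3. Cyp2r1, a hydroxylase that activates vitamin D, had 2.15, 1.99 and 2.52. Cyp21a1, a steroid hydroxylase of the adrenal gland, was well above background in all 3 livers with 1.56, 1.94 and 2.74. Its second probe, also well above background on all 3, had the same order at far lower levels of -4.23, -3.78 and -3.14. Cyp2s1, an extrahepatic P450, had -2.89, -2.99 and -3.62.

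Cyp26a1, which clears retinoic acid and is itself induced by it, had the third widest range. Its levels were -3.17, -2.83 and -0.94 on HFD 1, 2 and 3, a 4.69-fold range in which HFD 3 stood alone. Cyp26b1, a second retinoic acid hydroxylase, had -0.48, -0.32 and 0.06, also highest on HFD 3 but over 0.53 only. The Cyp26a1 promoter is shown because it carries a closely spaced pair of retinoid receptor binding words, AGTTCA read on the minus strand, in capitals.
Cyp26a1, chr19:37697558-37697857, plus strand: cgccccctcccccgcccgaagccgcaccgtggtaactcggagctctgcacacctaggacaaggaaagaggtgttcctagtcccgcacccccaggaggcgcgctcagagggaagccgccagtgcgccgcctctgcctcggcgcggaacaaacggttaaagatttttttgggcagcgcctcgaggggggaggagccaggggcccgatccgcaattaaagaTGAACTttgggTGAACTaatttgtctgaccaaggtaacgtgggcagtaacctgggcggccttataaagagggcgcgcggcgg
The binding words begin 32 and 21 bases before the start site. At least 2 such words on either strand are found in 1.53% of the 32851 RefSeq promoters of this length, and in 3 of the 55 members with a promoter in that set. This too is a description of sequence, and no measurement here bears on whether the sites were occupied.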

How the data were processed

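Cy3-labelled RNA (0.5 microgram) was hybridised to 1-colour Agilent arrays, per the labels' protocols. The deposited scanner files give background-subtracted intensity values and detection flags, with Feature Extraction 10.7.3.1 per the file headers and 9.1 per the submitters' processing notes. A table of log2 values was deposited as well; how the authors normalized it and selected its probes is not given in the sources used here. Column medians ran from 9.55 to 9.85. For chow columns the scale could not be checked against scanner values.

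Probes were named through RefSeq accessions (27234 of 39429 named, assembly GRCm38.p6). Spots with outlier flags were left out, no spot was saturated, and the probe with the highest mean stood for a gene. Diet effects were fitted to the table in R 4.3.3 with limma 3.58.1. Variances were shrunk to a prior of 0.0354 (2.10 degrees of freedom), estimated on 19490 genes that at least 2 HFD arrays detected. The prior used the spread between the HFD scanner files, which follow the HFD columns of the table, and no chow values. Genes of the table were not left out of the prior, so it is not independent of the HFD values tested. Genes outside the table entered the adjustment at a p of 1. The step was tested on simulated data. HFD levels are log2 processed signals minus the array's 75th percentile, which ran from 758 to 971. Normexp used median signals. The HFD arrays detected 56.0% to 66.0% of probes. The number of arrays limits the precision. Named genes were the listed members, 31 members chosen whatever their value (2 without a named probe), 8 others with the widest HFD range, and passing list genes; other genes were named after their values were seen. The members and lists were chosen with earlier results of these data known. Alternatives covered the prior, adjustment, probes, scaling, floor, block and each sample left out. The alternatives for counts of HFD array order and range were chosen after seeing the data.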

Additional observations from a re-analysis of the deposited data

How the results depend on the processing

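Counts in limma moved with the adjustment, prior, scaling, block and samples used. Of P450 members, 1 higher and 0 lower became 2 and 1 when adjusted over the table alone, and the lower count was 1 with the table's own prior, with centred columns and with quantile normalization. Passing genes of the partner lists went from 3 to 5 with the table's own prior and to 7 over the table alone. Over all genes, 342 higher and 270 lower became 552 and 474 with the table's own prior, 801 and 687 over the table alone, 183 and 604 with centred columns, and 286 and 532 with quantile normalization. The share of higher calls thus moved from 55.9% to 23.3% and 35.0% with the scaling; centring subtracts the median of a table selected on the diet, which lowers every difference by 0.22 by construction. Leaving out 1 sample gave 0 to 1 members higher, 0 lower, 0 partner genes, 0 to 243 genes higher and 0 to 210 lower, in fits with fewer samples, while all 1488 genes kept an unadjusted p under 0.05. Replicate numbers did not pair the samples: deviations from the group means correlated at -0.10, 0.14 and 0.03 for numbers 1, 2 and 3. With the replicate number as a block, 0 members, 0 partner genes, 0 higher and 0 lower genes passed (1488 at an unadjusted p under 0.05), and the log2 fold change of Cyp1a1 was 1.52 (adjusted p = 0.221). No direction of Cyp1a1, Cyp2j6, Cyp3a13, Tiparp, Nr5a2 or Foxa3 reversed. Detection counts of 56 to 63 and median HFD ranges of 0.53 to 0.64 stayed close to the reported 56 and 0.60.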

Other observations

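Some other P450 genes varied little among the HFD livers. Cyp2a12, a steroid hydroxylase, had levels of 6.28, 6.38 and 6.51 on HFD 1, 2 and 3, Cyp4b1 had 0.75, 0.93 and 0.72, and Cyp4f13 had 1.76, 1.86 and 2.05. Cyp20a1, a P450 without a known substrate, had -1.82, -2.23 and -2.24. These genes were chosen after their values were seen. On single arrays, Cyp24a1 had a level of -2.99 on HFD 3 against -7.07 and -7.86 where it was not well above background, and Cyp19a1 had -4.53 on HFD 2 against -7.02 and -7.93.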
